A study of Mus musculus with 4 samples.

Results

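Izumo1r, also known as folate receptor 4 or Juno, was followed through 4 single-cell RNA-seq libraries of mouse CD8 T cells. It is 1 gene of the 32285 features counted in these libraries. It was chosen by its values in these same data, because it was lower in the group called C6M9 in every class of T cells, so its own difference between the groups is described below with no test.

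The folate receptors are a small family of proteins held on the cell surface by a GPI anchor, a lipid tail added after synthesis. Izumo1r keeps the fold of the family, but its best known role is on the egg, where it is the receptor for the sperm protein IZUMO1. In T cells of the mouse it is known as a surface marker of CD4 cells: regulatory T cells carry it, anergic CD4 cells carry it together with CD73 (the product of Nt5e), and follicular helper cells of the lymph node carry it too.

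The cells came from tumour-draining lymph nodes of C57BL/6 mice, taken 14 days after a tumour was implanted, and were sorted by flow cytometry as CD8+ cells with CD90.1 and CD44 on their surface. The M9 group is labelled as high affinity for the peptide GP33 and the C6M9 group as low affinity for it. Nodes of 10 mice (M9) and of 35 mice (C6M9) were pooled, and each group was sequenced as 2 libraries described as biological duplicates. How the mice were divided between the libraries of a group is not given, so the spread between the libraries may be partly technical. P-values between the groups measure that spread only. P-values of comparisons made within libraries, given further below, measure the spread of the differences found within them. The libraries held 4586 and 1325 barcodes (M9 replicates 1 and 2) and 3220 and 1982 barcodes (C6M9 replicates 1 and 2), with 33680632 to 79174627 UMIs each (unique molecular identifiers, which count RNA molecules). No pair of libraries shared more than 4 barcodes.

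After filters on genes, UMIs and mitochondrial content, and after 277 likely doublets and 123 B cell-like cells were left out, 9924 T cells remained (4101, 1199, 2889 and 1735 in the order M9 replicate 1, M9 replicate 2, C6M9 replicate 1, C6M9 replicate 2). Their median depth was 13205, 20024, 13993 and 21488 UMIs. The label CD8 held for nearly all of them: Cd8a stood at 519.9 to 581.8 CPM (the usual scaling of a gene's UMIs by the total UMIs of the library) in every library, while Cd4 stood at 1.05 to 3.17 CPM and Foxp3, the transcription factor of regulatory T cells, at 0.177 to 0.65 CPM.

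Izumo1r (ENSMUSG00000031933) lies on the minus strand of chromosome 9, at 14885814 to 14903949 in GRCm38, and is annotated with 5 protein-coding transcripts in GENCODE M21. No annotated gene overlaps it. The nearest protein-coding gene, Gpr83, a receptor gene also known from regulatory T cells, is 15025 bases away on the other strand and gave 11 UMIs in all T cells, against 11464 for Izumo1r. The next expressed neighbour, the DNA repair gene Mre11a, is 48691 bases away and had a log2 difference of -0.01 between the groups (scaled by TMM, edgeR's trimmed mean of M-values).

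Izumo1r RNA was abundant in M9 cells and scarce in C6M9 cells. Over all T cells it stood at 93.9 CPM (by total UMIs, exact Poisson 95% interval 91.7 to 96.2) and 80.0 CPM (76.9 to 83.1) in the M9 libraries, from 6735 and 2585 UMIs. In the C6M9 libraries it stood at 16.0 CPM (15.1 to 17.0) and 17.4 CPM (16.4 to 18.5), from 1085 and 1059 UMIs. The intervals cover counting error only. The groups did not overlap, and the mean was 87.0 ± 9.84 CPM in M9 against 16.7 ± 0.985 CPM in C6M9 (SD, n = 2 libraries each), a ratio of 5.20.

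The TMM-scaled difference was -2.30 on the log2 scale, the 67th most negative value among 13654 genes fitted. For scale, edgeR's quasi-likelihood test over all T cells, with Benjamini-Hochberg adjustment over all genes at 0.05, called 1.63% of the genes higher in C6M9 and 4.1% lower. Since Izumo1r was picked on this contrast, its place among them is a description. With cells of at most 5% mitochondrial UMIs the levels by total UMIs were 81.6, 64.9, 15.8 and 16.8 CPM, and with every cell holding a Cd4 or Foxp3 UMI left out they were 94.8, 79.9, 15.8 and 16.9 CPM, in the same order of libraries.

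Per cell, both the mean number of Izumo1r UMIs and the share of cells with a UMI were higher in M9. Both measures follow the mean level, so they do not separate the share of cells from the amount in each. Izumo1r gave 1.64 and 2.16 UMIs per cell in M9, and 0.376 and 0.610 in C6M9. At least 1 UMI was seen in 55.1% and 60.0% of M9 cells and in 22.3% and 31.0% of C6M9 cells, the deeper library of each group having the higher share. After every cell was thinned to 2000 UMIs (24 shallower cells left out), the shares were 17.3% (exact binomial 95% interval 16.1 to 18.5) and 15.5% (13.5 to 17.7) in M9, and 3.46% (2.83 to 4.20) and 3.53% (2.71 to 4.51) in C6M9.

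Cells rich in Izumo1r were nearly all M9 cells. Cells with 10 or more UMIs numbered 80 and 48 in the M9 libraries and 2 and 1 in the C6M9 libraries. Between 5 and 9 UMIs were found in 8.29% and 10.6% of M9 cells and in 0.727% and 1.96% of C6M9 cells. The highest cell held 20, 42, 13 and 11 UMIs in the 4 libraries, counted at the depth each cell was sequenced to.

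**Figure D1:**
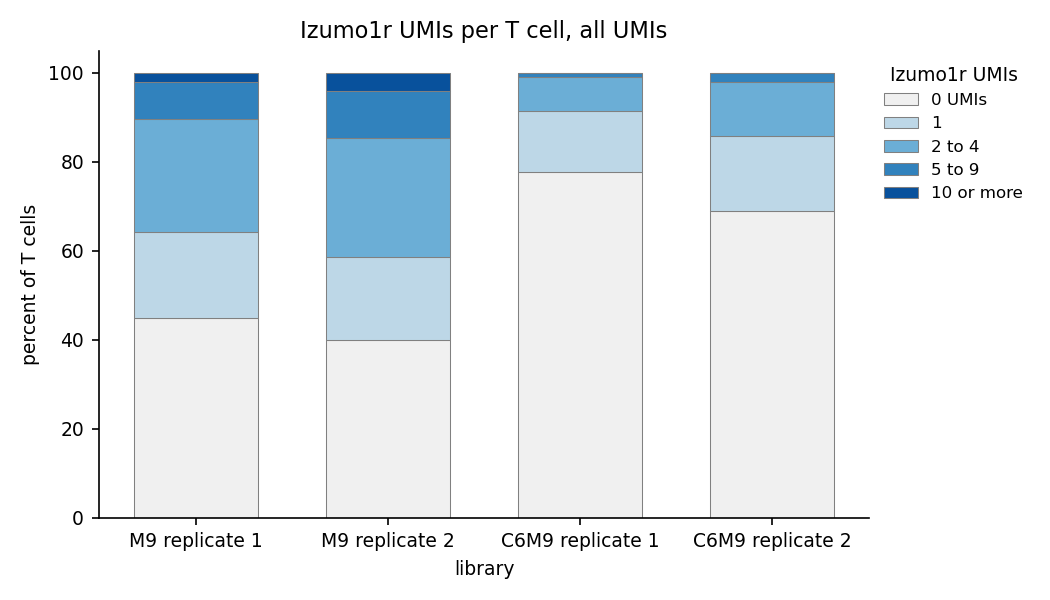
Stacked bars for the 4 libraries (x axis) give the percent of T cells (y axis) with 0, 1, 2 to 4, 5 to 9 and 10 or more Izumo1r UMIs, at each cell's own depth. Cells with no Izumo1r UMI make up 44.9% and 40.0% of the M9 libraries and 77.7% and 69.0% of the C6M9 libraries, and the bins of 2 or more UMIs are larger in both M9 libraries.

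B cell-like cells gave a measure of free RNA in the droplets, though a loose one. B cell-like cells with few UMIs of 11 T cell genes (under 0.2% of their UMIs, a limit set after the values were seen) gave 0 Izumo1r UMIs among 367621 UMIs of 63 cells. A count of 0 allows up to 8.16 CPM over all 4 libraries (3 counts of the total), up to 11.9 CPM in the C6M9 libraries alone and up to 26.1 CPM in the M9 libraries alone. The T cell genes stood in these B cell-like cells at 2.23% of their level in T cells. The other 60 B cell-like cells carried T cell genes at 95.2% of the T cell level and Izumo1r at 28.7 CPM. Since these 63 cells were chosen for few T cell UMIs, a low value was built into the choice, and how much of the C6M9 level is free RNA was not tested. The lowest class levels described next, in both groups, are close to these limits or under them.

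Izumo1r differed among classes of T cells as well as between the groups, with class means in M9 from 23.3 to 191.8 CPM by total UMIs. Classes are clusters of cells named by fixed marker genes, and Izumo1r was itself among the 2000 variable genes used for clustering, so the order of classes is a description. The highest level was in cluster 0, which had too few fixed markers for a name and is led by Kcnc1, Klrb1f, Izumo1r, Sox4, Cd22 and Gzmk: 189.5 and 194.0 CPM in M9, and 47.8 and 38.5 CPM in C6M9. TCR-activated-like cells joined cluster 6, led by genes induced through the T cell receptor such as Tnfrsf4 and Egr2, and cluster 5, led by Xcl1 and Lad1 and by growth and ribosome-making genes such as Myc and Polr1b. They had 86.1 and 96.4 CPM in M9 against 14.7 and 15.4 CPM in C6M9.

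Interferon-like cells, marked by Ifit and Rsad2 genes, had 107.2 and 65.0 CPM in M9 against 16.3 and 18.8 CPM in C6M9. Memory-like cells, marked by Il7r and S1pr1, had 54.1 and 82.1 CPM in M9 and 20.1 and 22.7 CPM in C6M9. The 2 M9 libraries lay far apart in these classes. Within M9, interferon-like cells overlapped both TCR-activated-like and memory-like cells, so they cannot be ordered against them beyond the spread of the libraries. TCR-activated-like cells lay above memory-like cells in M9, but their nearest libraries were close, at 86.1 and 82.1 CPM, and no order is read from 2 libraries.

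Cycling-like cells had 46.1 and 31.8 CPM in M9 against 16.1 and 15.8 CPM in C6M9. Effector-like cells, marked by killer cell lectin-like receptor genes and granzymes, were lowest in both groups, with 25.03 and 21.6 CPM in M9 and 8.22 and 13.0 CPM in C6M9. In each of the 6 classes both M9 libraries lay above both C6M9 libraries, which is the pattern the gene was chosen for. The ratio of the group means ran from 2.20 in effector-like cells and 2.44 in cycling-like cells, through 3.18 in memory-like cells, 4.44 in cluster 0 and 4.91 in interferon-like cells, to 6.06 in TCR-activated-like cells.

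In TCR-activated-like cells the mean was 91.3 ± 7.26 CPM in M9 (SD, n = 2) and 15.1 ± 0.480 CPM in C6M9. In C6M9 the 4 classes TCR-activated-like, cycling-like, interferon-like and memory-like all lay between 14.7 and 22.7 CPM, and cluster 0 stood above them at 38.5 and 47.8 CPM. The TCR-activated-like class drew on different clusters in the groups: cluster 6 held 631 of 974 and 132 of 205 of its M9 cells but 26 of 111 and 20 of 94 of its C6M9 cells, cluster 5 the others. Within cluster 5 the means were 73.1 (M9) and 13.8 CPM (C6M9), and within cluster 6 they were 104 and 22.9 CPM.

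**Figure D2:**
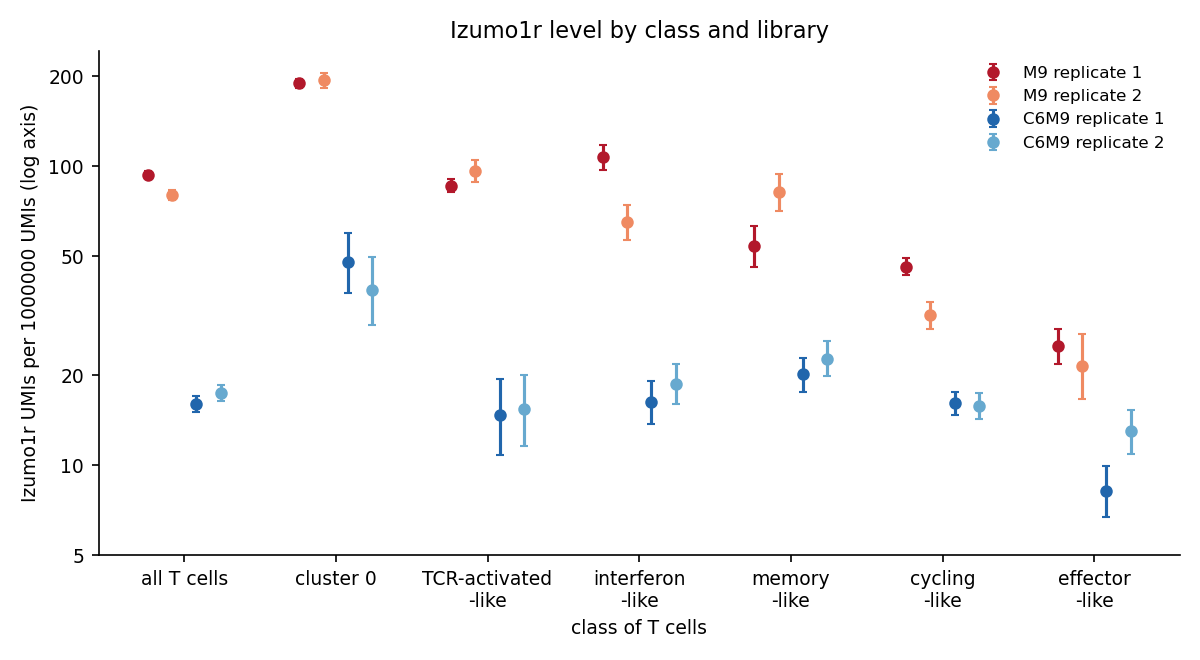
Izumo1r level (y axis, CPM by total UMIs, log scale) in each library for all T cells and for the 6 classes, with exact Poisson 95% intervals for counting error. In every class both M9 libraries lie above both C6M9 libraries, with the highest ratio in TCR-activated-like cells (86.1 and 96.4 against 14.7 and 15.4 CPM).

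The class-by-class fits give the background against which such a pattern is to be read. The same edgeR test called 21.6% of genes in TCR-activated-like cells, 2.19% in interferon-like cells, 1.3% in cycling-like cells, 1.07% in memory-like cells, 0.441% in cluster 0 and 0.0361% in effector-like cells, in either direction. By TMM-scaled log2 difference Izumo1r was the 4th most negative of 10321 genes in interferon-like cells, the 23rd of 9744 in cluster 0, the 34th of 10081 in TCR-activated-like cells and the 45th of 10220 in memory-like cells. It was the 114th of 12019 in cycling-like cells and the 184th of 11094 in effector-like cells.

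In effector-like cells the 2 measures did not run alike. At 2000 UMIs per cell, 2.94 ± 0.864% of M9 cells and 3.07 ± 0.0742% of C6M9 cells had an Izumo1r UMI (SD, n = 2), so the shares overlapped while the CPM did not. No order is read from that share. The C6M9 replicate 1 level of this class, 8.22 CPM, is under the 11.9 CPM that the B cell-like cells of C6M9 allow as background. Both M9 levels, 25.03 and 21.6 CPM, are under the 26.1 CPM that those of M9 allow. The class joined cluster 2, led by Klre1 and Zeb2, and cluster 9, led by Ifitm1 and Gzma. Cluster 2 lay above these limits, at 39.7 and 26.7 CPM in M9 and 14.3 and 20.6 CPM in C6M9. Its Poisson intervals in M9 replicate 2 and C6M9 replicate 1 reached below them, to 20.3 and 11.2 CPM. Cluster 9 lay under them, at 10.96 and 8.24 CPM in M9 and 4.1 and 6.97 CPM in C6M9.

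The groups also differed in their mix of classes. Cluster 0, where Izumo1r was highest, made up 37.0% and 28.0% of M9 cells and 5.23% and 5.24% of C6M9 cells, while memory-like cells made up 6.02% and 10.1% of M9 and 34.2% and 31.0% of C6M9. When the class levels of each library were weighted by the M9 mix, the means were 87.8 ± 2.56 CPM (M9) and 21.6 ± 0.799 CPM (C6M9), a log2 difference of -2.02. With the C6M9 mix they were 54.1 ± 5.29 and 16.7 ± 0.934 CPM, a log2 difference of -1.69, beside -2.37 with each library's own mix. On the CPM scale both differences were smaller than the one with each library's own mix. Since Izumo1r helped to form the classes, they were also made without it, and the TMM-scaled differences were then between -2.64 (TCR-activated-like) and -1.07 (effector-like).

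The cell cycle phase called for each cell gave a comparison that did not enter the choice of the gene. Cells called in S or G2M phase had lower Izumo1r CPM than cells called in G1 phase in 4 of 4 libraries. G1 cells stood at 124.4, 112.2, 19.3 and 21.3 CPM, S cells at 38.7, 39.2, 11.6 and 13.0 CPM, and G2M cells at 50.4, 30.9, 14.8 and 15.03 CPM, all by total UMIs and in the order M9 replicates 1 and 2, C6M9 replicates 1 and 2.

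In edgeR's quasi-likelihood test with each library as a block, Izumo1r was lower in S and G2M cells by a log2 difference of -1.07 (SE 0.14, Benjamini-Hochberg adjusted p = 6.7e-06). The differences in the single libraries were -1.41 and -1.59 in M9 and -0.48 and -0.52 in C6M9. Whether they differ between the groups was not tested, since that would use the contrast on which the gene was chosen. A call in this comparison says little on its own, because the test called 36.1% of 12966 genes lower in S and G2M cells and 33.8% higher.

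Cycling cells held far more RNA, and per cell the libraries did not share a direction. The median S cell had 33192 and 48075 UMIs in M9 and 38486 and 53066 in C6M9, whereas the median G1 cell had 12098, 18257, 11260 and 16556 UMIs. Izumo1r UMIs per cell were 1.72 and 2.29 in G1 cells and 1.45 and 2.34 in S cells of M9. In C6M9 they were 0.276 and 0.480 in G1 cells and 0.541 and 0.854 in S cells, so S cells held more Izumo1r molecules per cell than G1 cells in 3 of 4 libraries, at a lower share of all molecules. G2M cells held 1.31 and 1.35 UMIs in M9 and 0.618 and 0.929 in C6M9. At 2000 UMIs per cell, a UMI was seen in 19.3%, 17.6%, 3.99% and 3.75% of G1 cells and in 8.39%, 8.79%, 2.30% and 3.26% of S cells.

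**Figure D3:**
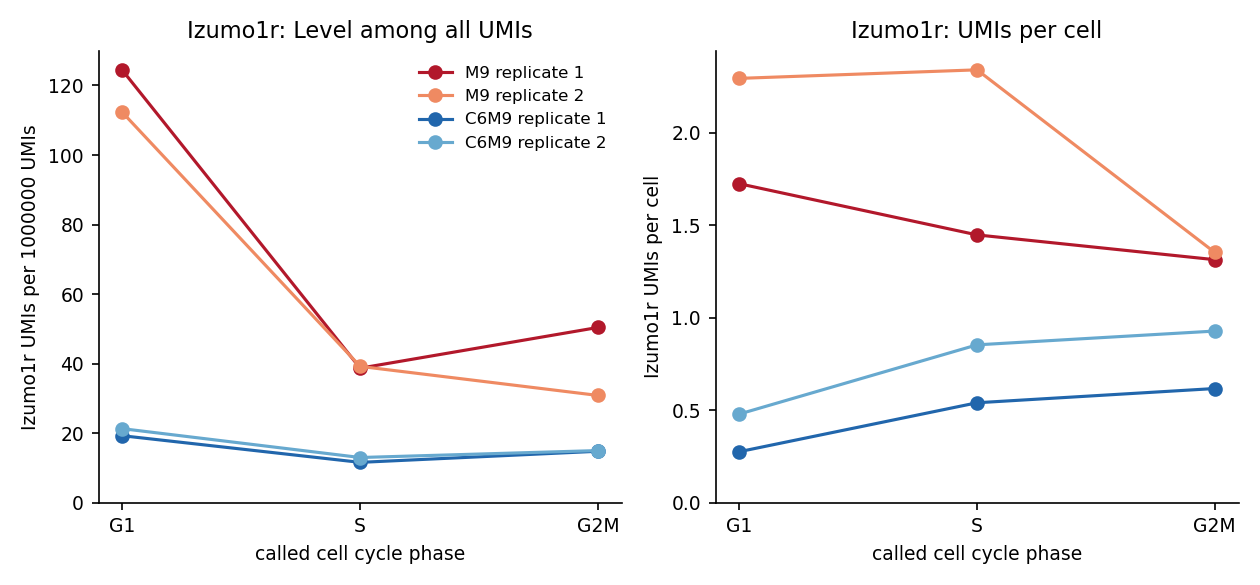
Izumo1r in cells called in G1, S and G2M phase (x axis), with 1 point and line per library and no error bars, as UMIs of the gene among all UMIs scaled to CPM (left) and as UMIs per cell (right). G1 cells are highest by CPM in all 4 libraries (19.3 to 124.4 CPM), while by UMIs per cell the C6M9 G1 cells are lowest (0.276 and 0.480).

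Most cells with Izumo1r RNA carried the transcripts of CD8 T cells. At 2000 UMIs per cell, 707 and 185 M9 cells and 100 and 61 C6M9 cells had an Izumo1r UMI, here called positive. A Cd8a UMI was seen in 61.1% to 67% of positive cells and in 60.2% to 63.5% of the other cells, over the 4 libraries, and a Cd8b1 UMI in 77% to 83.8% and in 82.1% to 87.2%. Cd4 was seen in 0.541% to 3% of positive cells and 0.359% to 0.591% of the others, and Foxp3 in 0% to 3.28% and 0% to 0.0591%. Within each library Cd8b1 was seen in a smaller share of positive cells, in C6M9 replicate 1 in 77% against 87.2%. Cd4 was seen in 3% against 0.359% there, 1.64% against 0.36% in C6M9 replicate 2, and 0.566% against 0.591% and 0.541% against 0.396% in M9. Foxp3 was seen in 2 of 61 positive cells of C6M9 replicate 2 against 0 of 1666 others. The C6M9 values for Cd4 rest on 3 and 1 positive cells. At full depth, 10, 2, 6 and 7 cells of the 4 libraries had a Foxp3 UMI. Cells with neither a Cd4 nor a Foxp3 UMI numbered 3972 of 4101, 1164 of 1199, 2827 of 2889 and 1688 of 1735. In M9, 119 and 34 cells had a Cd4 UMI. Of these, 64.7% in each library held an Izumo1r UMI, beside 55.1% and 60.0% of all M9 cells. They were also deeper, with medians of 19797 and 26398 UMIs against 13205 and 20024.

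In M9 the positive cells were mostly cluster 0 cells (54.5% and 51.4% of them) and TCR-activated-like cells (22.2% and 20.5%). In C6M9 they were spread over the classes, with 37% and 26.2% memory-like cells, 20% and 26.2% cycling-like cells, and 10% and 11.5% cluster 0 cells. These shares were not adjusted for the mix of classes, which differed between the groups as given above.

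The genes whose levels ran most like that of Izumo1r were sought over 24 sums of class and library, as Pearson's r of TMM-scaled log2 CPM among 5418 genes of at least 20 CPM. The 24 points share 4 libraries, the classes share the genes that defined them, and the group difference enters the correlation, so r is a description. The median r over all genes was -0.19, and 26 genes had an r above 0.8.

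The most alike gene was Asap1, a GTPase-activating protein of ARF GTPases, with r = 0.94. It was followed by Tox (r = 0.90), a nuclear factor of CD8 T cells under lasting antigen stimulation, by Dgkz (0.89), a diacylglycerol kinase that dampens T cell receptor signals, and by Cd22 (0.89), a lectin best known as an inhibitory receptor of B cells. Then came Sox4, Cirbp, Ephx1 and 2310001H17Rik (0.88 each), Itgal (0.87), the integrin chain of LFA-1, and Pitpnm2 (0.86). With each library centred first, the 10 values were between 0.74 and 0.92.

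The lowest r belonged to Dpy19l1 (-0.86), H2afy (-0.85), Dnajc15 (-0.85), Plac8 (-0.84) and Ctsc (-0.82), the gene of cathepsin C, which activates granzymes. Over all T cells edgeR called all 10 of the most alike genes lower in C6M9 and 4 of the 5 least alike genes higher, all but H2afy. This is part of what r measures and adds no support. Cd22 had the lowest adjusted p of the 10 (edgeR log2 difference -2.07, SE 0.11, adjusted p = 0.000342). It stood at 47.3 and 40.9 TMM-scaled CPM in M9 against 10.1 and 10.99 in C6M9. Sox4 had the largest fall of the 10 (log2 difference -2.14). Without C6M9 replicate 1, 6 of the 10 and 1 of the 4 were still called, and without C6M9 replicate 2, 7 and 2.

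Tcf7, the transcription factor of stem-like and memory CD8 cells, had r = 0.23, and Il7r, the receptor chain for the survival cytokine IL-7, had r = -0.38. Cxcr5, the chemokine receptor that follicular helper cells use to enter follicles, had r = 0.73, or 0.92 with each library centred. Il7r ran opposite between the groups, at 119.8 and 141.8 TMM-scaled CPM in M9 and 279.0 and 257.2 in C6M9 (log2 difference 1.04, SE 0.11, edgeR adjusted p = 0.00262). For Tcf7, at 453.6 to 512.0 TMM-scaled CPM in the 4 libraries, the log2 difference was 0.11 (SE 0.09, adjusted p = 0.484).

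**Figure D4:**
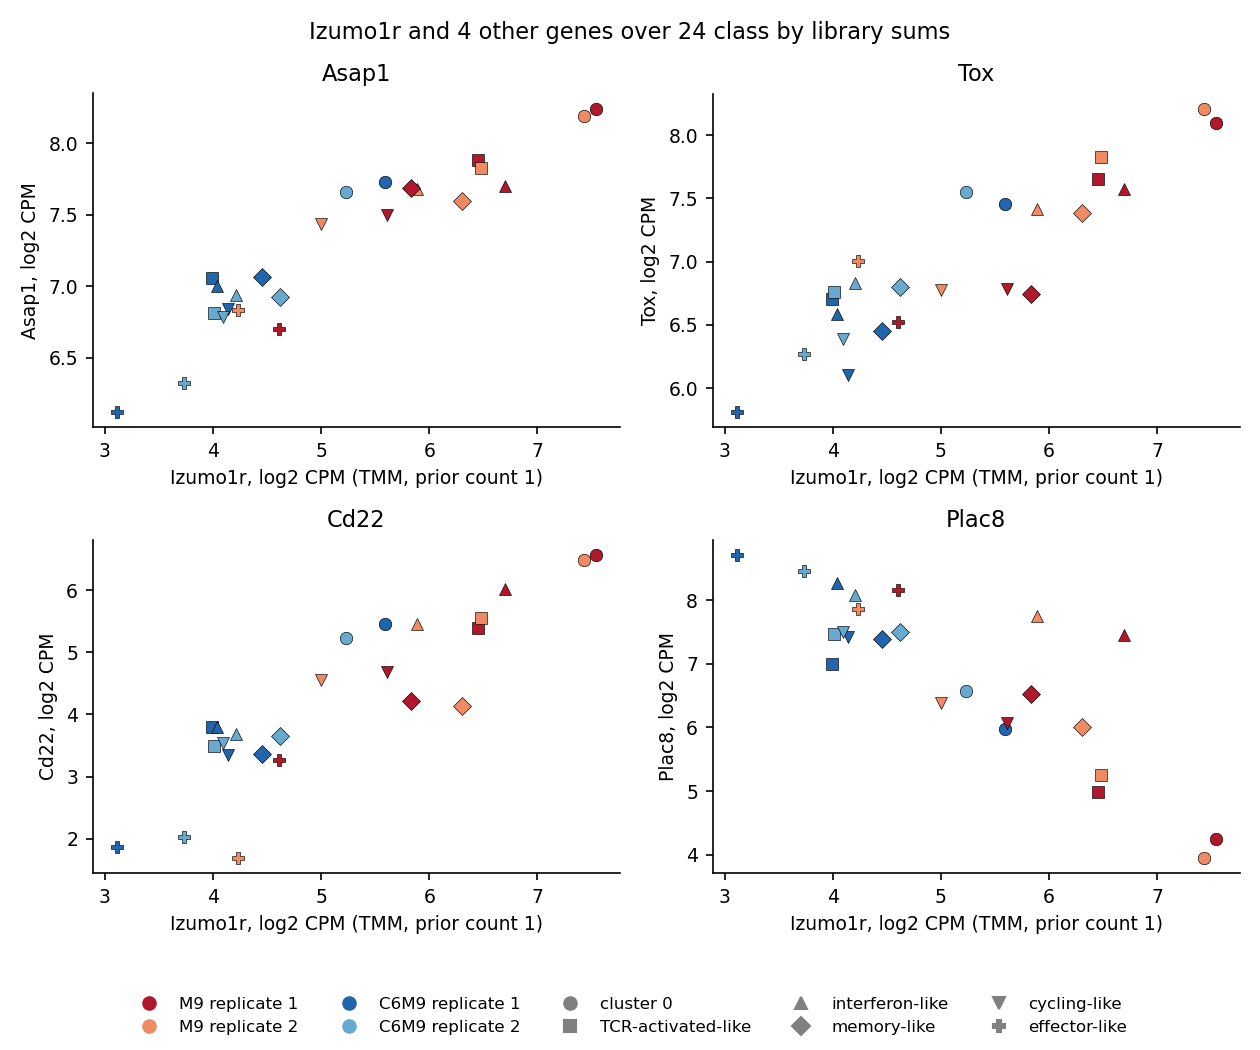
Level of Asap1, Tox, Cd22 and Plac8 (y axes) against that of Izumo1r (x axes), all as TMM-scaled log2 CPM, with 1 point for each of the 24 sums of class (shape) and library (colour). Asap1 (r = 0.94), Tox (0.90) and Cd22 (0.89) run with Izumo1r over both groups, and Plac8 (-0.84) runs against it.

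Positive cells were then compared with the other cells of the same library, a contrast the choice of the gene did not use. Status came from 2000 UMIs per cell, and Izumo1r was left out of the sums. The other cells are not without Izumo1r, since many held a UMI at full depth. Over all classes edgeR called 4.63% of 12358 genes higher in positive cells and 10.5% lower. Cell cycle genes moved with this contrast: 40 of 43 S phase genes and 45 of 52 G2 and M phase genes were lower in positive cells. The median depth was 12016 against 13562 UMIs, 17602 against 20702, 15076 against 13955, and 24253 against 21526 in the 4 libraries (positive cells first).

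Of 17 tested genes known from CD4 follicular helper cells 10 were higher in positive cells and 0 lower, with a median log2 difference of 0.19 beside -0.003 over all genes. They included Cxcr5 (0.70, adjusted p = 0.00207), Maf (0.59, adjusted p = 0.0183), Tox2 (0.54, adjusted p = 0.0255) and Bcl6 (0.51, adjusted p = 0.0132), the last being the lineage factor of follicular helper cells. Without M9 replicate 2, 5 of the 17 were called, and Maf (0.42, adjusted p = 0.22), Tox2 (0.37, adjusted p = 0.297) and Bcl6 (0.33, adjusted p = 0.188) missed the threshold. Of 19 genes of progenitor exhausted CD8 cells, which share several members with that list, 12 were higher and 0 lower. Slamf6, a surface marker of those progenitors, was higher by 0.33 (adjusted p = 0.00128) and Tcf7 by 0.17 (adjusted p = 0.00983), each in 4 of 4 libraries.

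Genes of anergy were higher in 7 of 19 cases and lower in 0, among them Egr2 (0.54, adjusted p = 0.00419) and Egr3 (0.54, adjusted p = 0.0117), which the T cell receptor induces. Nt5e, whose product marks anergic CD4 cells together with Izumo1r protein, had 0.45 (adjusted p = 0.0422, 4 of 4 libraries), and with DESeq2 its adjusted p was 0.136. In edgeR it missed the threshold without M9 replicate 1 (0.29, adjusted p = 0.514), M9 replicate 2 (adjusted p = 0.0854) or C6M9 replicate 1 (adjusted p = 0.078). Of 30 genes induced by T cell receptor signals 11 were higher and 0 lower. Immediate early and dissociation stress genes moved with the same contrast: 10 of 19 were higher, among them Egr1, Hspa1a, Dusp1 and Junb, and 2, Hsp90aa1 and Hspa8, lower. Their part in the receptor-induced calls was not tested. Regulatory T cell genes were divided, with 4 of 16 higher (Lrrc32, Nt5e, Ikzf2 and Ctla4) and 2 lower (Il2ra and Capg).

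These counts fell when M9 replicate 1, which holds 707 of the positive cells, was left out. Without it 3 follicular helper genes, 5 progenitor genes, 1 anergy gene and 0 genes induced by T cell receptor signals were called higher, as were 3 immediate early and stress genes, with 412 genes called in all beside 1866. The log2 differences of Maf, Tox2 and Egr2 were then 0.64, 0.64 and 0.46, and all missed the threshold (edgeR adjusted p = 0.148, 0.125 and 0.171). Cxcr5 (0.54, adjusted p = 0.0728), Egr3 (0.31, adjusted p = 0.31) and Tcf7 (0.16, adjusted p = 0.11) missed it as well. Status was also taken from all UMIs of a cell, so that deeper cells were more often positive. Of all 12912 genes 164 were then called higher and 196 lower, so a count of 0 in a list says little. Of 43 S phase genes 0 were called, and of 52 G2 and M phase genes 0. Higher were 7 of 17 follicular helper genes, 9 of 19 progenitor genes (1 lower), 3 of 19 anergy genes and 2 of 30 genes of the receptor-induced list (1 lower). In that comparison 6 of 14 B cell markers were higher too. The part of depth, cell cycle and B cell RNA in these calls was not tested.

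Within classes fewer genes were called between positive and other cells. This comparison rests on 9 pairs of sums with at least 20 cells in each, 7 of them from M9 and 2 from C6M9 replicate 1, while C6M9 replicate 2 gave no pair. With each library and class as a block edgeR called 0.475% of 10520 genes higher and 1.9% lower. Pairs from 1 library are not independent, but the fit treats all 9 as separate, so its p-values may be too small. Of the 50 genes called higher 43 were also called higher over all classes, and of the 200 called lower 192 were also called lower.

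Among genes of at least 10 CPM with the same sign in all 4 libraries (C6M9 replicate 2 read from its sums over all T cells), the largest rise was that of Ramp1, a partner chain of the receptor for the neuropeptide CGRP. Its log2 difference was 0.75 (SE 0.12, adjusted p = 5.28e-05). Ephx1, an epoxide hydrolase, followed with 0.50 (SE 0.08, adjusted p = 1.57e-05), and it was also among the 10 genes most like Izumo1r. Abcb9 (0.43), St6galnac3 (0.42), Dennd2d (0.37), Plcxd2 (0.32), Cyth3 (0.29), Ikzf2 (0.28), Galnt6 (0.28) and Arhgap25 (0.26) were the other genes among the 10. Ikzf2 encodes Helios, a transcription factor of regulatory T cells and of chronically stimulated CD8 cells.

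The largest falls in positive cells were those of Lgals3 (-1.27, adjusted p = 2.69e-05), the gene of galectin-3, the histone genes Hist1h2ab (-0.98) and Hist1h3c (-0.72), S100a6 (-0.75, adjusted p = 2.38e-09), a calcium-binding protein of activated and effector cells, and Cxcl10 (-0.72), an interferon-induced chemokine. Over all classes S100a6 was lower in positive cells by -1.80, -1.43, -0.46 and -0.59 in the 4 libraries. For Ramp1 the values were 0.98, 0.94, 0.81 and 0.07.

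Of these 15 genes 3 (Ikzf2, Lgals3 and S100a6) were still called without M9 replicate 1, where 45 genes were called in all. All 15 kept their sign there, which the rule of 1 sign in every library built in and which adds no support. Without M9 replicate 2, 12 were still called, and without C6M9 replicate 1, 13. Positive status and the group difference did not run together for each gene. Cxcl10 was lower in positive cells and lower in C6M9 (log2 difference -1.91, adjusted p = 0.000815), and Ramp1 was higher in positive cells while its difference between the groups was 0.15 (SE 0.11, adjusted p = 0.453). Ephx1, St6galnac3, Cyth3, Ikzf2 and Dennd2d were higher in positive cells and called lower in C6M9, Dennd2d not without C6M9 replicate 1 (adjusted p = 0.225) or replicate 2 (adjusted p = 0.0753).

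**Figure D5:**
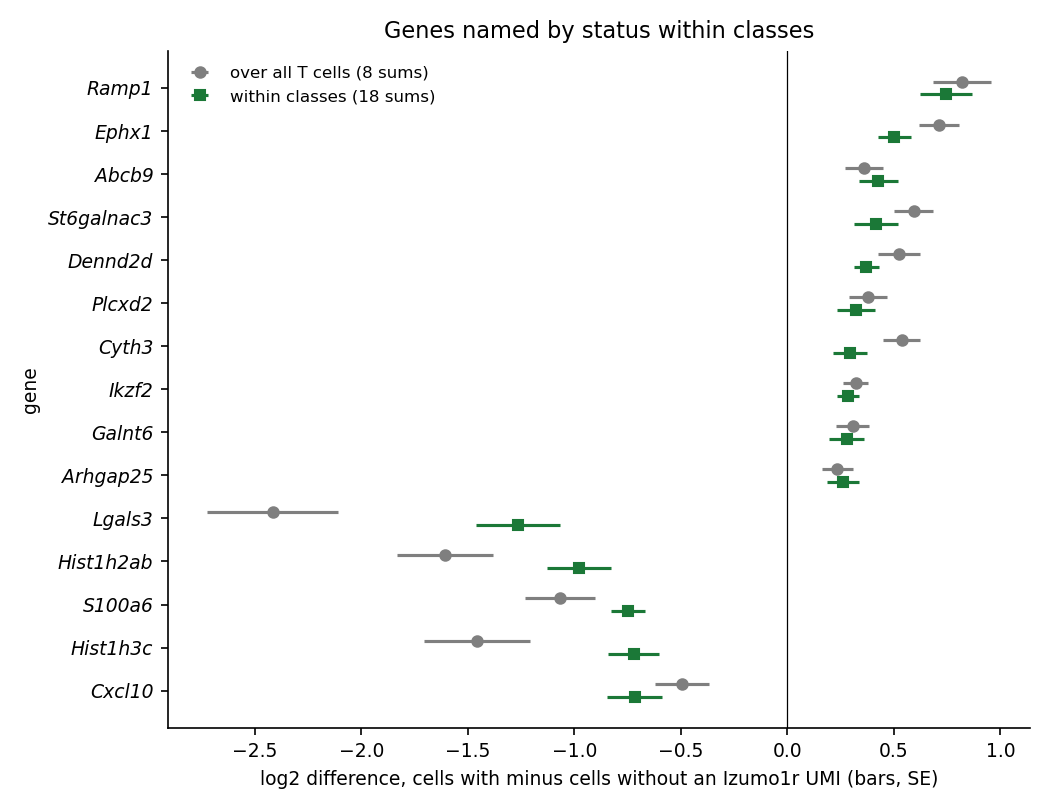
Log2 difference between Izumo1r UMI-positive and other cells (x axis, bars are SE) for the 10 genes highest and the 5 lowest in positive cells within classes (y axis), over all T cells (circles) and within classes (squares). Ramp1 lies at 0.82 and 0.75, and Lgals3 at -2.42 and -1.27.

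Few genes of the lists were called within classes, where 0.475% of all genes were called higher and 1.9% lower. Progenitor exhausted genes were higher in 5 of 19 cases (Cxcr5 0.37, Ikzf2 0.28, Myb 0.22, Tox 0.18 and Slamf6 0.14) and follicular helper genes in 3 of 15 (Cxcr5, Tox and Slamf6), with 0 lower in both. Anergy genes gave 0 calls of 19, which says little beside the low shares of all genes. Genes induced by T cell receptor signals gave 2 of 29 higher (Tnfsf4 and Egr1). Without M9 replicate 1, 0 genes of that list were higher and 2 of 28 lower, with Tnfsf4 at 0.18 (adjusted p = 0.895) and Egr1 at 0.10 (adjusted p = 0.902). Cd22 had 0.26 (adjusted p = 0.107) and Tcf7 0.10 (adjusted p = 0.224). Of the progenitor genes 1 was called higher and 1 lower without M9 replicate 1, where Cxcr5 had 0.06 (adjusted p = 0.964). Without M9 replicate 2, 4 were higher and 1 lower, and without C6M9 replicate 1, 7 and 0. B cell markers were higher in 3 of 9 cases, the class II genes H2-Eb1, H2-Ab1 and H2-Aa, each under 7 CPM over all T cells, and their part in the result was not tested.

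Of the other folate receptors almost no RNA was seen, with 0 UMIs for Folr1 and 1 for Folr2 in all T cells. Slc19a1, the reduced folate carrier and the main route of folate into most cells, stood at 10.3, 10.4, 11.1 and 9.80 TMM-scaled CPM, a log2 difference of 0.01 (SE 0.11). Slc25a32, which carries folate into mitochondria, stood at 12.3, 14.2, 14.5 and 15.3, a difference of 0.17 (SE 0.10). Slc46a1, the proton-coupled transporter of the gut, stayed under 0.3 CPM. Of the ABC exporters Abcc1 had -0.41 (adjusted p = 0.0661) and Abcg2 -0.58 (adjusted p = 0.0514).

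Of 12 receptors and transporters 7 could be tested between the groups, with 0 called and a median of -0.07 beside -0.02 over all genes. Of all genes 1.63% were called higher in C6M9 and 4.1% lower, so counts in lists this small say little. In positive cells 0 of 6 were called over all classes, beside 4.63% of all genes higher and 10.5% lower. Within classes 0 of 6 were called, beside 0.475% and 1.9%. Of 24 enzymes that carry one-carbon units on folate 20 could be tested between the groups, and 1 was called: Tyms, thymidylate synthase, higher in C6M9 by 0.44 (SE 0.10, edgeR adjusted p = 0.0452). Without C6M9 replicate 1 it had 0.31 (adjusted p = 0.395).

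In positive cells 8 of 19 enzymes were lower and 0 higher over all classes, among them Tyms (-0.91), Mthfd1 (-0.71) and Shmt1 (-0.68), beside 10.5% of all genes lower. These enzymes also moved with the cell cycle, 13 of 20 being higher and 3 lower in S and G2M cells, beside 33.8% and 36.1% of all genes. Within classes Mthfd1 (-0.46, adjusted p = 0.0307) and Tyms (-0.43, adjusted p = 0.00162) were called lower, of 17 tested. Mthfd1 missed the threshold without each of the 3 libraries in turn (adjusted p = 0.0711 to 0.243) and Tyms without M9 replicate 1 (adjusted p = 0.31). DESeq2, which gave no adjusted p for 7954 of the 10520 genes, called 0 of 17. With status from all UMIs 0 of 20 were called over all classes, beside 360 of all 12912 genes, so this count says little. Slc19a1 was itself higher in S and G2M cells by 0.94, opposite to Izumo1r.

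Of the partners of Izumo1r in fertilization the sperm genes were silent or nearly so, with 4 UMIs for Izumo1, 0 for Izumo2 and Izumo3 and 17 for Tmem95 in all T cells. Izumo4, which is expressed outside the testis, stood at 37.7, 26.5, 27.8 and 27.3 TMM-scaled CPM, with a log2 difference of -0.23 (SE 0.15, adjusted p = 0.404). Cd9, the tetraspanin of the egg surface, was lower in C6M9, at 105.9, 81.4, 63.2 and 58.7 CPM (log2 difference -0.62, SE 0.13, adjusted p = 0.0316), but missed the threshold without C6M9 replicate 1 (adjusted p = 0.0901) and without C6M9 replicate 2 (adjusted p = 0.119).

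Its relative Cd81 was lower in C6M9 at 5.99, 4.81, 2.43 and 2.14 CPM (log2 difference -1.25, SE 0.17, adjusted p = 0.00733), and kept the call in each of the 10 alternatives run. In positive cells neither was called (Cd9 -0.04, Cd81 -0.16). Izumo4 was higher in positive cells over all classes by 0.40 (adjusted p = 0.00269, 4 of 4 libraries), but missed the threshold without M9 replicate 1 (0.38, adjusted p = 0.0639), and within classes had 0.15 (adjusted p = 0.465). The machinery that makes GPI anchors, which Izumo1r protein needs, showed 0 calls of 27 genes between the groups, with a median of 0.02. Of all genes 1.63% were called higher in C6M9 and 4.1% lower. In positive cells 1 of 27, Pgap1, was higher and 1, Pigf, lower, beside 4.63% and 10.5% of all genes. Pgap1 missed the threshold in 3 of the 4 fits that left out a library (adjusted p = 0.0835 to 0.218) and Pigf in 2 (adjusted p = 0.0763 and 0.164).

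The lists of CD4-lineage and signalling genes were also counted between the groups, on the contrast that chose Izumo1r, so nothing about Izumo1r is read from these counts. They stand beside the 1.63% of all genes called higher in C6M9 and the 4.1% called lower. Of 30 genes induced by T cell receptor signals 14 were lower in C6M9 and 0 higher, led by Tnfsf4 (-3.25) and Tnfrsf4 (-3.06), which encode OX40 ligand and OX40. Of 20 anergy genes 10 were lower and 0 higher, led by Egr2 (-1.83), Nt5e (-1.22) and Lag3 (-1.17), an inhibitory receptor.

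Of 17 follicular helper genes 10 were lower and 1, Il6ra, higher, and of 19 progenitor exhausted genes 11 were lower and 1, Il7r, higher. Cd200 (-1.96) and Bcl6 (-1.33) are in both. Of 15 regulatory T cell genes 8 were lower and 0 higher, most of them, such as Tnfrsf4 and Nt5e, also expressed by activated CD8 cells. Foxp3 itself had -1.36 (adjusted p = 0.0903) at under 0.62 CPM, and Cd4 was lower by -1.26 (adjusted p = 0.0231) at 3.16, 2.23, 1.21 and 1.08 TMM-scaled CPM. Cd4 missed the threshold without C6M9 replicate 1 (adjusted p = 0.0865) and without C6M9 replicate 2 (adjusted p = 0.0993).

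Each of these counts moved when a C6M9 library was left out: without replicate 1 and without replicate 2 of C6M9, 10 and 15 genes induced by receptor signals, 5 and 5 anergy genes, 9 and 7 follicular helper genes, 10 and 9 progenitor genes and 5 and 6 regulatory T cell genes were called lower. Over all genes the calls lower were then 181 of 14162 and 234 of 14267, beside 560 of 13654 in full. The remaining lists were mixed. Of 14 B cell markers 2 (Ighd and Ighm) were higher in C6M9 and 1 (Cd22) lower. Of 5 CD4 T cell markers 2 (Cd4 and Trat1) were lower and 0 higher. Of 7 myeloid and dendritic cell markers 1 (Cd68) was lower and 0 higher. Trat1 and Cd68 missed the threshold when either C6M9 library was left out. Of 10 defining CD8 T cell genes 1, Cd44, was lower by -0.48, and of 20 immediate early and stress genes 1, Egr1, was lower by -0.99. Ighd, Ighm and Cd44 missed the threshold when either C6M9 library was left out (adjusted p = 0.0629 to 0.152), and without M9 replicate 1, 5 immediate early and stress genes were higher in C6M9.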

How the data were processed

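The files hold the authors' deposited counts, which are raw UMIs of each gene in each barcode of 4 libraries made with the 10x Chromium 3′ kit (v3.1). Cell Ranger 6.0.0 and the build mm10 are named per the submitters' processing notes. Which annotation release was counted, and whether intronic reads were, was not given in the sources used, and 32158 of 32285 features matched GENCODE M21 by identifier. Of 11113 barcodes 10324 passed the limits of 500 genes and 1000 UMIs (lowest) and 10% mitochondrial UMIs (highest). The automatic threshold of Scrublet marked under 0.5% of the barcodes of each library, so the highest scores were left out at 0.8% per 1000 barcodes. Cells were clustered with scanpy 1.11.5 (2000 variable genes, 30 principal components, 15 neighbours, Leiden resolution 0.6) and clusters were named from fixed markers. Raw UMIs were summed per library and class, phase or status and tested with edgeR 4.0.16 (quasi-likelihood, TMM, filterByExpr, R 4.3.3), tested on simulated data first. P-values were adjusted by Benjamini-Hochberg over all genes at 0.05. DESeq2 1.42.0, DESeq2 size factors, no filter, doublets kept, other thinning and leaving out each library were alternatives. Exact intervals have 95% coverage. With 2 libraries against 2, no exact permutation test of a single value can reach the threshold.

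Izumo1r and the gene lists were chosen with earlier results of these data known. Genes named are those of the folate and gamete lists, 8 set genes, up to 4 genes per other list and direction that passed, the 10 genes with the highest and the 5 with the lowest r to Izumo1r, and the 10 highest and 5 lowest genes by status within classes. The values of 1 gene of these lists are not reported here. Protein sequences were not used here.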

Additional observations from a re-analysis of the deposited data

How the results depend on the processing

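The TMM-scaled difference in Izumo1r kept its sign in the settings run over all T cells and in the 6 classes. Since the gene was chosen for a fall in every class, a kept sign adds no support. The share of effector-like cells with an Izumo1r UMI at 2000 UMIs per cell was 0.136 percentage points higher in C6M9. Leaving out 1 library gave a TMM-scaled log2 difference of -2.44 to -2.11 over all T cells, -2.58 to -2.48 in TCR-activated-like cells, -2.27 to -1.93 in cluster 0, -2.61 to -1.83 in interferon-like cells, -1.83 to -1.33 in memory-like cells, -1.50 to -0.90 in cycling-like cells and -1.40 to -0.76 in effector-like cells. Clusters made without Izumo1r gave -2.64 in TCR-activated-like cells. The share of cells with an Izumo1r UMI differed by -12.9 percentage points at 2000 UMIs per cell (-13.8 to -12.0 with 1 library left out), by -6.99 at 1000 UMIs and by -30.9 with no thinning, where depth enters. Counts of genes called moved much more. Over all T cells 782 genes became 1934 with no filter on low counts and 239 to 1882 with 1 library left out. Positive against other cells gave 1866 genes, 412 to 2439 with 1 library left out and 360 with status from all UMIs. Within classes 250 genes became 581 with no filter, 1154 with status from all UMIs and 45 to 229 with 1 library left out; leaving out C6M9 replicate 2 changes nothing there, since it gave no pair. S and G2M against G1 cells gave 9063 genes and 8267 to 8572 with 1 library left out. In the classes, with 1 library left out, the counts were 1283 to 2261 (TCR-activated-like, 2181 in full), 16 to 282 (cluster 0, 43), 118 to 763 (cycling-like, 156), 22 to 1737 (effector-like, 4), 62 to 597 (interferon-like, 226) and 51 to 523 (memory-like, 109). DESeq2 gave 1054 (TCR-activated-like), 62 (effector-like), 134 (interferon-like) and 49 (memory-like). The cause of these moves was not tested. Within classes DESeq2 gave no adjusted p for 7954 of 10520 genes. With status from all UMIs, 5 genes turned direction over all classes: Cxcl10 (0.041), Tyms (0.0032), Igkc (1.11), Hspa1a (-0.0079) and Cdc6 (0.071). The deviations of the replicates numbered 1 from their group means correlated at -0.00064 over 13654 genes. With 2 libraries a group, this 1 value cannot exclude an effect shared by replicates of the same number. With the replicate block the count over all T cells was 892, in cluster 0 23, in effector-like cells 357 and in memory-like cells 184. With 2 libraries a group, these counts are set by the libraries at hand.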
